A study of Homo sapiens with 4 samples.

Results

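The miR-193 and miR-365 family was followed through 4 small RNA libraries as the rows hsa-miR-193a-5p, hsa-miR-193a-3p, hsa-miR-193b and hsa-miR-365, which are 4 of the 1733 mature miRNAs counted. The rows were picked by name, as the arms listed without a star, at a time when results of these same libraries were already known. Their values are therefore a description and carry no test. They came from Hep3B and Huh7, established hepatoma lines that stand for HCC cells, and from the hepatic cancer stem cells (HCSCs) cultured out of each, named Hep3B-C and Huh7-C. Replicates were absent (1 library per condition), no drug or genetic change is given in the labels for any of them, and each HCSC population was derived from its own parent line. The labels do not say how pure the HCSC cultures were, so fewer cells making a miRNA and less of it per cell cannot be told apart.

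MicroRNAs are cut from a hairpin precursor, which can release a mature strand from its 5p arm and another from its 3p arm. The strand loaded into Argonaute pairs with messenger RNAs mainly through its seed, bases 2 to 8, and lowers their output. In the miRBase release 17 names of these files, a star marks the arm then thought to be the less abundant, or passenger, strand. The 3p strands of this family are known as brakes on growth. The miR-193 3p strands are known to act on cyclin D1 and MCL1, and the miR-193b and miR-365 cluster is also known for its role in brown fat cell formation.

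The 8 strands that the 4 hairpins of the family can release are shown to make clear which rows share a seed and which can be separated by their sequence. They are taken from RefSeq (GRCh38.p14), 5′ to 3′, with the seed in capitals.
miR-193a-5p: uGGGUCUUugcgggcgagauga
miR-193b-5p (row hsa-miR-193b*): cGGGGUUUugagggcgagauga
miR-365a-5p (row hsa-miR-365*): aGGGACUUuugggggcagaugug
miR-365b-5p (row hsa-miR-365*): aGGGACUUucaggggcagcugu
miR-193a-3p: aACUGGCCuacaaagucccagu
miR-193b-3p (row hsa-miR-193b): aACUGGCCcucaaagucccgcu
miR-365a-3p (row hsa-miR-365): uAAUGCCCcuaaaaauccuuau
miR-365b-3p (row hsa-miR-365): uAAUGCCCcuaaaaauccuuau

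MiR-193a-3p and miR-193b-3p have the same seed and were identical at 18 of 22 bases, with the substitutions U9C, A10U, A20G and G21C (the miR-193a-3p base first, positions counted from 1 at the 5′ end). All 4 lie outside the seed. The mismatches allowed in the authors' mapping are not given in the sources used here, so reads divided between these rows are uncertain to that extent. The 3p strands of the miR-365 hairpins were identical over all 22 bases, and the single row hsa-miR-365 cannot be assigned to a locus. Their 5p strands differed at 3 of 22 compared bases (U10C, G11A and A19C, the miR-365a-5p base first), yet the files hold 1 row, hsa-miR-365*, whose locus is likewise left unassigned. The 5p strands of miR-193a and miR-193b differ by U5G and C6U inside the seed and by U1C and C11A outside it (the miR-193a-5p base first). Of 2545 mature miRNAs in the RefSeq table, 0 others carried a seed of these 8 strands.

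The hairpins, printed with both mature arms in capitals, form 2 pairs in the genome (GRCh38.p14, plus strand).
MIR193B: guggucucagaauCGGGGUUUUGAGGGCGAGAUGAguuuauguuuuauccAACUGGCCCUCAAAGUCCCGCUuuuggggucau
MIR365A: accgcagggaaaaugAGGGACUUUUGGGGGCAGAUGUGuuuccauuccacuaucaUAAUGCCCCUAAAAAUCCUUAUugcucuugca
MIR193A: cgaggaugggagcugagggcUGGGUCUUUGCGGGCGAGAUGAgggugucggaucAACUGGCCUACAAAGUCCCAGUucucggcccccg
MIR365B: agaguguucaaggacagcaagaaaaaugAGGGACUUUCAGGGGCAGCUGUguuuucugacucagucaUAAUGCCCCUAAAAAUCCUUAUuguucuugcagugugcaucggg

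MIR193B (chr16:14303967-14304049) and MIR365A (chr16:14309285-14309371) are separated by 5235 bases, and both lie in introns of the long non-coding RNA gene MIR193BHG (GENCODE release 29). MIR193A (chr17:31559996-31560083) lies between annotated genes, and MIR365B (chr17:31575411-31575521) follows it after 15327 bases and overlaps an exon of the long non-coding RNA AC003101.1.

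The miRNA counts summed to between 1739278 (Hep3B) and 5741567 (Huh7), and made up 10.4% of all reads in Hep3B and 35.2% in Hep3B-C, with 54.1% in Huh7 and 37.8% in Huh7-C. Because this share differed so much, levels are given in TPM, which relates a count to all reads of the library, and in CPM, which relates it to the miRNA counts alone. Going from CPM to TPM moved every log2 fold-change by 1.76 for Hep3B-C over Hep3B and by -0.52 for Huh7-C over Huh7. Intervals are 95% intervals of counting error alone. The hepatocyte markers hsa-miR-122, hsa-miR-122*, hsa-miR-192, hsa-miR-194 and hsa-miR-148a summed to 16675 TPM in Hep3B and 59243 in Hep3B-C, with 139807 in Huh7 and 88238 in Huh7-C. The defining hsa-miR-122 had 397 counts in Hep3B against 149892 in Hep3B-C, which is 8.68 on the log2 scale by TPM and 6.92 by CPM, while Huh7 had 489443 and Huh7-C 144814 (log2 fold-changes -1.77 and -1.25). Hsa-miR-122* was at 0 in Hep3B. The rest of the list moved less. For Hep3B-C over Hep3B, hsa-miR-192, hsa-miR-194 and hsa-miR-148a had log2 fold-changes of 1.23, 1.32 and 2.06 by TPM. By CPM these were -0.53, -0.45 and 0.30. For Huh7-C over Huh7 they were -0.60, -0.40 and 0.24 by TPM and -0.085, 0.11 and 0.76 by CPM. Over the same libraries in the same order, 6 blood cell markers summed to 0.477, 0.0648, 74.9 and 0.467 TPM (hsa-miR-144 and hsa-miR-150 at 0 throughout), and the endothelial pair to 52.2, 103, 208 and 159 TPM. In Huh7, hsa-miR-451 alone made up 72.8 of the 74.9 TPM of blood cell markers, with 773 counts. The 6 mesenchyme and muscle markers summed to 26.3, 113, 9.32 and 14.4 TPM, and the 3 neuronal markers to 25.4, 88.0, 969 and 1084 TPM, with hsa-miR-124 at 0 in every library. Hsa-miR-143 alone made up 110 TPM of the mesenchyme and muscle sum in Hep3B-C. By TPM, hsa-miR-143 was lower in Huh7-C than in Huh7 (log2 fold-change -1.32), while hsa-miR-1 and hsa-miR-206 were higher (0.49 and 1.46). Hsa-miR-145, hsa-miR-214 and hsa-miR-133a did not reach 10 counts. Of the neuronal markers, hsa-miR-9 was at 919 TPM in Huh7 and 1059 in Huh7-C, and hsa-miR-128 at 49.4 and 25.0. All these marker sums are in TPM, so they also move with the share of miRNA among all reads. The part of other cell types in the results below was not tested.

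The family was a small fraction of the miRNA pool. Its 4 rows held 0.0325% of miRNA counts in Hep3B (95% Clopper-Pearson interval 0.0299 to 0.0353), 0.0323% in Hep3B-C (0.0308 to 0.0338), then 0.0242% in Huh7 (0.0230 to 0.0256) and 0.0268% in Huh7-C (0.0252 to 0.0285). Within it, hsa-miR-193a-5p was the most abundant row in every library.

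Hsa-miR-193a-5p, the 5p strand of MIR193A, had 430 counts (25.6 TPM) in Hep3B and 1482 (96.0 TPM) in Hep3B-C, with 1240 (117 TPM) in Huh7 and 1027 (95.8 TPM) in Huh7-C. Hep3B was therefore the low library, and Hep3B-C and Huh7-C could not be separated (ratio 1.001, interval 0.924 to 1.09). On the CPM scale the order was different and the range narrow, at 247 in Hep3B and 273 in Hep3B-C, with 216 in Huh7 and 254 in Huh7-C. Its rank among detected miRNAs was also steady, between 82 (Huh7-C) and 102 (Hep3B).

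The log2 fold-change of hsa-miR-193a-5p was 1.90 in Hep3B-C against Hep3B (interval 1.75 to 2.06) and -0.28 in Huh7-C against Huh7 (-0.41 to -0.16) on the TPM scale. Per miRNA counts it was 0.14 (-0.01 to 0.30) and 0.23 (0.11 to 0.35), so the direction in the Huh7 pair turned with the scale. A value that does not depend on library size is the place among all miRNAs that reached 10 counts in one or both libraries of a pair. Hsa-miR-193a-5p lay above 62.5% of 475 miRNAs in the Hep3B pair and above 62.2% of 431 in the Huh7 pair.

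Hsa-miR-193a-3p, the strand from the other arm of the same hairpin and the one carrying the growth-restraining seed, had few counts. There were 9 in Hep3B (0.536 TPM) and 56 in Hep3B-C (3.63 TPM), with 47 in Huh7 (4.42 TPM) and 26 in Huh7-C (2.43 TPM). Hep3B was again low, and the intervals of neighbouring libraries among the other 3 held a ratio of 1 (Huh7 over Hep3B-C 1.22, interval 0.810 to 1.83, and Hep3B-C over Huh7-C 1.49, interval 0.923 to 2.48). In CPM it stood at 5.17, 10.3, 8.19 and 6.43 in the same order of libraries, and the interval of every neighbouring pair in the CPM order held 1.

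Its log2 fold-change of 2.69 in the Hep3B pair (interval 1.73 to 3.96) was the highest of the 4 members, and that in the Huh7 pair was -0.85 (-1.62 to -0.15). On the CPM scale these values were 0.93 (-0.03 to 2.20) and -0.34 (-1.10 to 0.37). Hsa-miR-193a-3p lay above 79.2% of the miRNAs in the Hep3B pair and above 43.4% of those of the Huh7 pair.

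Hsa-miR-193b, the 3p strand of MIR193B with the same seed, had 95 counts in Hep3B (5.66 TPM) and 145 in Hep3B-C (9.39 TPM), with 88 in Huh7 (8.28 TPM) and 25 in Huh7-C (2.33 TPM). Huh7-C was the low library on both scales. In CPM the levels were 54.6 in Hep3B and 26.7 in Hep3B-C, with 15.3 in Huh7 and 6.18 in Huh7-C, and no interval between neighbours in this order held 1.

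In TPM, hsa-miR-193b had a log2 fold-change of 0.73 (interval 0.35 to 1.12) for Hep3B-C over Hep3B and -1.81 (-2.53 to -1.17) for Huh7-C over Huh7. Per miRNA counts it was -1.04 (-1.42 to -0.64) and -1.29 (-2.01 to -0.66), lower in the HCSCs of both lines. The direction in the Hep3B pair thus turned with the scale. Its place among all miRNAs was low in each pair, above 24.2% of them in the Hep3B pair and above 18.6% in the Huh7 pair.

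Hsa-miR-365, the 3p strand of MIR365A and MIR365B together, was scarce, with 32 counts in Hep3B (1.91 TPM) and 71 in Hep3B-C (4.60 TPM), with 17 in Huh7 (1.60 TPM) and 7 in Huh7-C (0.653 TPM). Hep3B-C was the high library in TPM, at 2.41 times Hep3B (interval 1.57 to 3.78), while the intervals of Hep3B over Huh7 and of Huh7 over Huh7-C held 1. In CPM it stood at 18.4 in Hep3B and 13.1 in Hep3B-C, with 2.96 in Huh7 and 1.73 in Huh7-C. The libraries of the Hep3B line were above those of the Huh7 line on that scale, with Hep3B-C at 4.42 times Huh7 (2.57 to 7.999).

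The TPM of hsa-miR-365 gave a log2 fold-change of 1.26 for the Hep3B lines (interval 0.65 to 1.92) and -1.23 for the Huh7 lines (-2.80 to 0.05), where the counts did not exclude equal levels. Per miRNA counts the values were -0.51 (-1.11 to 0.16) and -0.72 (-2.29 to 0.57), so the Hep3B pair turned direction with the scale here too. It lay above 42.9% of the miRNAs in the Hep3B pair and above 30.4% in the Huh7 pair.

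**Figure D1:**
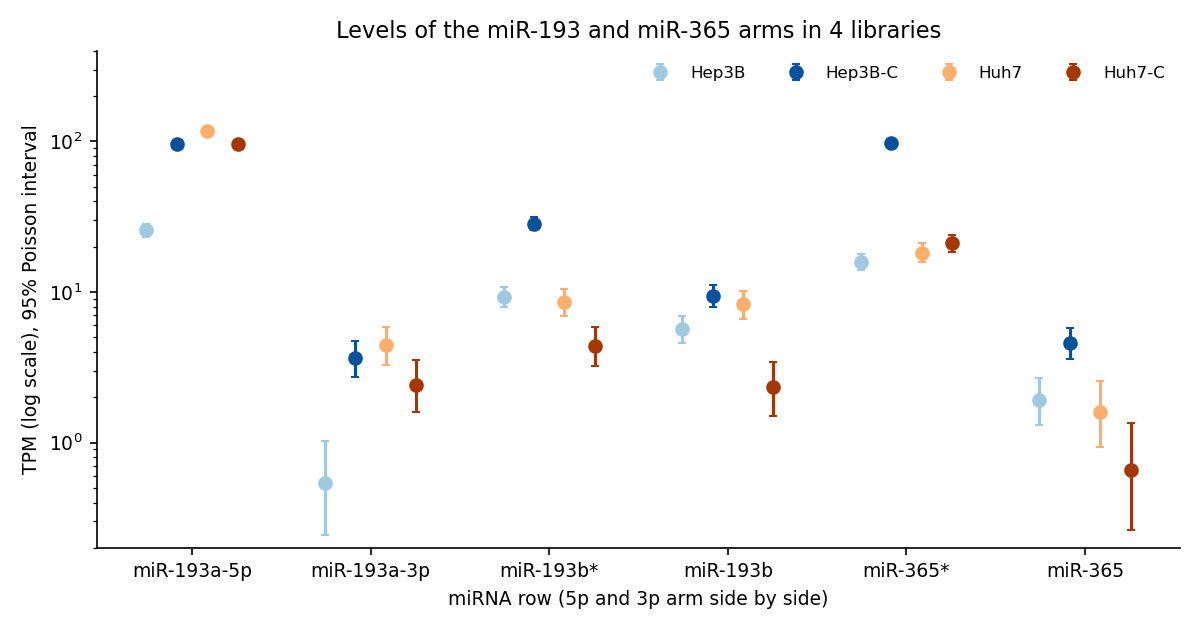
TPM (log axis) of the 4 family rows and the 2 starred rows in each library, as points with 95% Poisson intervals of the counts. Hsa-miR-193a-5p and hsa-miR-365* lie above their 3p partners in every library, and hsa-miR-193a-3p is lowest in Hep3B at 0.536 TPM.

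Counted together, 3 of the 4 members were at least 2-fold higher in Hep3B-C than in Hep3B by TPM and 0 were lower by that much. Of all miRNAs reaching 10 counts in the pair, 66.5% were at least 2-fold higher and 5.05% lower. The member count is close to that background. The median log2 fold-change of the members was 1.58, beside 1.42 for the 475 miRNAs. On the CPM scale 0 members were 2-fold higher and 1, hsa-miR-193b, was 2-fold lower (background 19.4% higher and 25.1% lower), with medians of -0.18 for the members and -0.34 for all.

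In Huh7-C against Huh7, 0 of the 4 members were 2-fold higher and 2, hsa-miR-193b and hsa-miR-365, were 2-fold lower by TPM, where 7.42% and 37.4% of the 431 miRNAs were. The members had a median log2 fold-change of -1.04, beside -0.66 for all. By CPM 0 were 2-fold higher and 1 (hsa-miR-193b) 2-fold lower, against 15.3% and 24.4% of all miRNAs, and the medians were -0.53 and -0.15. In each pair hsa-miR-193a-5p lay above the median of all miRNAs, by 0.48 and 0.38 log2 units, and hsa-miR-193b below it, by values of -0.70 and -1.14. Hsa-miR-365 was also below it in each, at -0.17 and -0.57. Hsa-miR-193a-3p was above it in the Hep3B pair (1.27) and below it in the Huh7 pair (-0.19).

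**Figure D2:**
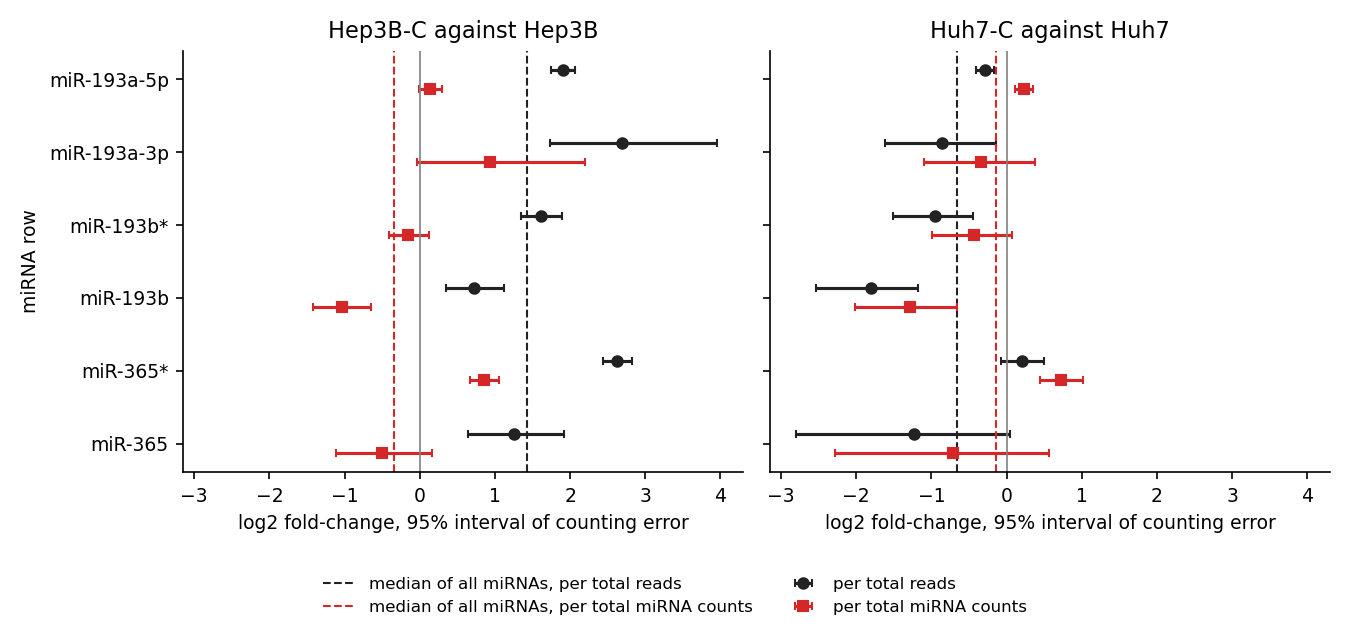
Log2 fold-change of each row in HCSCs against their parent line, per total reads (black circles) and per total miRNA counts (red squares), with 95% intervals of counting error and dashed lines at the median of all miRNAs. The distance of a row from the dashed line of its own colour is the same on both scales, and hsa-miR-193b lies left of it in both pairs.

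**Figure D3:**
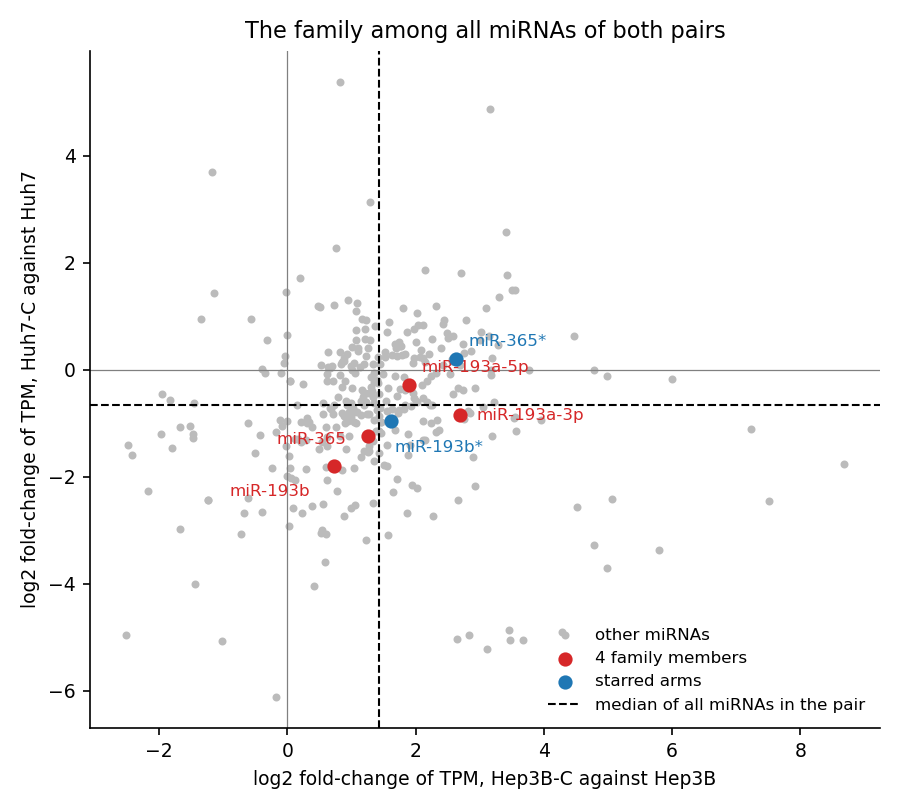
Log2 fold-change of TPM in the Hep3B pair (x axis) and the Huh7 pair (y axis) for the 359 miRNAs that reached 10 counts in each pair, with the family members in red and the starred arms in blue. All 4 members have positive x values and negative y values, and sit within the cloud of the other miRNAs.

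Between the parent lines, hsa-miR-193a-5p and hsa-miR-193a-3p were higher in Huh7 than in Hep3B by TPM, with log2 fold-changes of 2.19 (interval 2.03 to 2.35) and 2.98 (2.00 to 4.26). Those of hsa-miR-193b and hsa-miR-365 were 0.55 (0.11 to 0.98) and -0.23 (-1.19 to 0.64). Hence 2 of 4 members were at least 2-fold higher and 0 lower, where 57.8% and 18.3% of 476 miRNAs were, and the medians were 1.37 for the members and 1.59 for all. Per miRNA counts the log2 fold-changes were -0.20, 0.60, -1.83 and -2.62 in the order just given, with 0 members 2-fold higher and 2 lower (background 24.8% and 47.5%).

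The HCSCs of the lines, Huh7-C and Hep3B-C, were compared the same way, and here the scales differed by 0.10 only. The log2 fold-change of hsa-miR-193a-5p was -0.0018 (interval -0.12 to 0.11) and that of hsa-miR-193a-3p -0.57 (-1.31 to 0.12). Hsa-miR-193b and hsa-miR-365 were lower in Huh7-C, at -1.99 (-2.68 to -1.39) and -2.73 (-4.18 to -1.70). That made 0 members 2-fold higher and 2 lower, beside 22.7% and 46.8% of 502 miRNAs. The intervals held 0 for the rows of the miR-193a hairpin and did not for hsa-miR-193b and hsa-miR-365. By CPM 0 members were 2-fold higher and 2 lower as well, beside 21.9% and 49% of miRNAs.

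The data went against the naming of guide strands. Hsa-miR-365*, the 5p strand listed as passenger, had 266 counts in Hep3B and 1510 in Hep3B-C, with 194 in Huh7 and 226 in Huh7-C. It exceeded hsa-miR-365 in every library, by 8.31 times (interval 5.75 to 12.4), 21.3 times (16.8 to 27.4), 11.4 times (6.95 to 20.0) and 32.3 times (15.4 to 81.2) in that order. Hsa-miR-193b* had 156 counts in Hep3B and 440 in Hep3B-C, with 91 in Huh7 and 47 in Huh7-C. Its ratio to hsa-miR-193b was 1.64 (1.26 to 2.14), 3.03 (2.51 to 3.69), 1.03 (0.763 to 1.40) and 1.88 (1.13 to 3.19), so that in Huh7 the arms could not be separated. Where names give no star, hsa-miR-193a-5p exceeded hsa-miR-193a-3p by 47.8 times in Hep3B, 26.5 in Hep3B-C, and by 26.4 in Huh7 and 39.5 in Huh7-C.

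With the starred rows included, the 5p rows made up 86.2% of the 988 family reads in Hep3B (95% Clopper-Pearson interval 83.9 to 88.3) and 92.7% of 3704 in Hep3B-C (91.8 to 93.5). In Huh7 they were 90.9% of 1677 (89.5 to 92.3) and in Huh7-C 95.7% of 1358 (94.5 to 96.7). The 5p share was therefore higher in the HCSCs of each line, and the intervals of a pair did not overlap. Such ratios within a library are independent of its size. They do depend on how well each strand is ligated and mapped, which was not tested.

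Taken hairpin by hairpin, the ratio of hsa-miR-365* to hsa-miR-365 was 2.56 times higher in Hep3B-C than in Hep3B (exact conditional interval 1.60 to 4.02) and 2.83 times higher in Huh7-C than in Huh7 (1.08 to 8.23). For hsa-miR-193b* over hsa-miR-193b the values were 1.85 (1.33 to 2.57) and 1.82 (0.997 to 3.36). The 5p to 3p ratio of miR-193a moved apart in the lines, at 0.554 times in the Hep3B pair (0.239 to 1.14) and 1.497 times in the Huh7 pair (0.901 to 2.54), and each interval held 1. The starred rows were set against their partners only after their counts had been seen.

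Among the 79 hairpins with a starred and an unstarred row summing to at least 10 counts in each library, the starred arm gained on its partner in both HCSC lines in 24.1% (19 hairpins), the family's among them. The starred arm was above its partner in all 4 libraries in 7.59% (6 hairpins), which include those of miR-193b and miR-365. Any excess in counts was taken as above, and for miR-193b in Huh7 it was 91 against 88 counts, where the arms could not be separated. The median change of the log2 ratio of starred to unstarred arm was -0.10 for the Hep3B lines and -0.37 for the Huh7 lines. For hsa-miR-365* it was 1.37 and 1.44, above 92.4% and 93.7% of these hairpins. For hsa-miR-193b* it was 0.89 and 0.85, above 84.8% and 82.3%. The minimum applied to the summed arms and not to the starred arm alone. These shares, medians and places therefore include hairpins with few or no starred reads, such as that of hsa-miR-122*, at 0 counts in Hep3B.

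**Figure D4:**
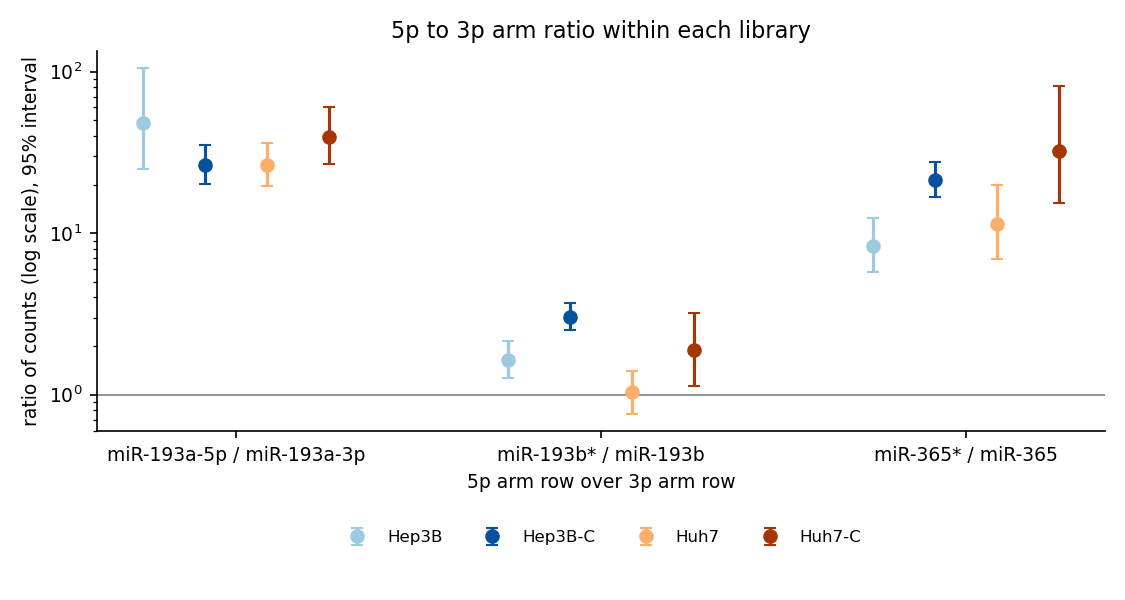
Ratio of the 5p row to the 3p row within each library (log axis), with 95% intervals of counting error. The grey line marks equal arms, only hsa-miR-193b* in Huh7 has an interval that reaches it, and the ratios of hsa-miR-193b* and hsa-miR-365* are higher in Hep3B-C and Huh7-C than in their parent lines.

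The levels of the starred rows completed the picture of these hairpins. Hsa-miR-365* was at 15.8 TPM in Hep3B and 97.8 in Hep3B-C, with 18.3 in Huh7 and 21.1 in Huh7-C, with log2 fold-changes of 2.62 (interval 2.44 to 2.82) for Hep3B-C and 0.21 (-0.08 to 0.49) for Huh7-C. It is the row of these hairpins that was higher in the HCSCs of both lines per miRNA counts with intervals clear of 0, at 0.86 (0.67 to 1.06) and 0.72 (0.44 to 1.01). Hsa-miR-193b* was at 9.30, 28.5, 8.57 and 4.39 TPM in the same order of libraries, with log2 fold-changes of 1.61 (1.35 to 1.89) and -0.96 (-1.51 to -0.44) by TPM and of -0.15 (-0.41 to 0.13) and -0.44 (-0.99 to 0.08) by CPM.

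Since hsa-miR-193a-3p and hsa-miR-193b share the seed ACUGGCC, their counts were also added. The sum was 104 in Hep3B (6.20 TPM) and 201 in Hep3B-C (13.02 TPM), with 135 in Huh7 (12.7 TPM) and 51 in Huh7-C (4.76 TPM). By TPM the pool had a log2 fold-change of 1.07 (interval 0.72 to 1.43) for Hep3B-C and -1.41 (-1.91 to -0.94) for Huh7-C. By CPM it was lower in the HCSCs of each line, at -0.70 (-1.04 to -0.34) and -0.89 (-1.39 to -0.42).

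The make-up of this seed pool differed between libraries. Hsa-miR-193b was 10.6 times hsa-miR-193a-3p in Hep3B (interval 5.33 to 23.8), 2.59 times in Hep3B-C (1.89 to 3.59), then 1.87 times in Huh7 (1.30 to 2.73) and 0.962 times in Huh7-C (0.533 to 1.73). The ratio in Hep3B-C was 0.245 times that in Hep3B (0.102 to 0.532), and in Huh7-C 0.514 times that in Huh7 (0.254 to 1.04). On chromosome 16, hsa-miR-193b was 2.97 times hsa-miR-365 in Hep3B (1.97 to 4.58), 2.04 times in Hep3B-C (1.53 to 2.75), 5.18 times in Huh7 (3.06 to 9.28) and 3.57 times in Huh7-C (1.502 to 9.78), although part of hsa-miR-365 may come from chromosome 17. Those ratios moved by 0.688 times (0.406 to 1.15) and 0.690 times (0.238 to 2.20) in the pairs, with 1 inside each interval.

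Likeness of pattern was measured as the root mean square difference of log2 counts, each centred over the 4 libraries, among 354 other miRNAs that had at least 50 counts in a library or belonged to these hairpins. The difference between miRNAs does not change with library size. Closest to hsa-miR-193a-5p were hsa-miR-548d-5p (0.10), hsa-miR-3662 (0.17) and hsa-miR-148a (0.20), and closest to hsa-miR-193a-3p were hsa-miR-616 (0.24), hsa-miR-25* (0.31) and hsa-miR-219-1-3p (0.33). Those closest to hsa-miR-193b were hsa-miR-27b (0.07), hsa-miR-18a (0.11) and hsa-miR-574-5p (0.26). For hsa-miR-365 they were hsa-miR-4654 (0.13), hsa-miR-20a (0.14) and hsa-miR-193b* (0.16).

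Within the family, the arms of miR-193a were near each other (0.35, rank 4 from hsa-miR-193a-3p and rank 16 from hsa-miR-193a-5p), as were hsa-miR-193b and hsa-miR-365 (0.47, ranks 22 and 21). The arms of the other hairpins were further apart than those of miR-193a, at 0.55 between hsa-miR-193b and hsa-miR-193b* (rank 29) and 0.74 between hsa-miR-365 and hsa-miR-365* (rank 59). Across these sets the distance was larger, at 1.13 between hsa-miR-193b and hsa-miR-193a-5p and 1.44 between hsa-miR-365 and hsa-miR-193a-3p. With hsa-miR-365* the gap was small, at 0.99 from hsa-miR-193b and 1.09 from hsa-miR-193a-5p. Hsa-miR-193b and hsa-miR-193a-3p, which share the seed, were 1.23 apart.

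Other miRNAs known to lower cyclin D1, a driver of entry into the cell cycle, were taken as a list of 14 (let-7a, let-7b and members of the miR-15, miR-17, miR-19, miR-34 and miR-503 groups), and all 14 reached 10 counts in each pair. In the Hep3B pair 10 were 2-fold higher and 0 lower by TPM, where 66.5% and 5.05% of all miRNAs were, and the median log2 fold-change was 1.47 beside 1.42 for all. By CPM 0 were higher and 2 lower (background 19.4% and 25.1%), with a median of -0.30 beside -0.34. For Huh7-C over Huh7, 0 were higher and 3 lower by TPM (background 7.42% and 37.4%), with medians of -0.66 for the list and for all. By CPM these counts were 0 and 1, beside 15.3% and 24.4% of all miRNAs. The most abundant of them was hsa-let-7a, with 104924, 276287, 54615 and 65069 counts in Hep3B, Hep3B-C, Huh7 and Huh7-C. Next came hsa-miR-20a, with 22741, 46172, 10386 and 5791 counts, which is also among the closest to hsa-miR-365.

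From a list of 19 miRNAs known to act in brown fat or in adipocyte formation, 13 could be compared between Hep3B-C and Hep3B, and 15 between Huh7-C and Huh7. By TPM 8 were 2-fold higher and 0 lower in Hep3B-C, beside 66.5% and 5.05% of all miRNAs, with a median of 1.27 for the list and 1.42 for all. In Huh7-C 1 was higher and 9 were lower, beside 7.42% and 37.4%, with medians of -1.32 and -0.66. By CPM 1 was higher and 4 were lower in Hep3B-C (background 19.4% and 25.1%, medians -0.49 for the list and -0.34 for all), and 2 were higher and 5 lower in Huh7-C (background 15.3% and 24.4%, medians -0.81 and -0.15). Hsa-miR-378, which arises from an intron of the metabolic coactivator gene PPARGC1B, had the most counts, at 121101 in Hep3B and 1298641 in Hep3B-C, with 267128 in Huh7 and 759746 in Huh7-C. Hsa-miR-182 followed, at 113976, 496361, 114108 and 106719 counts. Neither of these is among the miRNAs closest to a family member, but hsa-miR-27b, which is also on the list, was the closest to hsa-miR-193b (0.07).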

How the data were processed

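Small RNA from 4 cell populations (Hep3B, Hep3B-C, Huh7 and Huh7-C, 1 library each) was sequenced. Per the study's methods, the authors dropped contaminants, redundant sequences and anything under 18 nt, mapped the rest to NCBI Build 36.1 with SOAP, set aside other small RNA classes and searched miRBase release 17. The deposited values are raw read counts of 1733 miRNAs, with no normalization by the authors. Redundancy filtering and mapping rules, for which settings are not given in the sources used here, could change arm ratios.

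TPM was computed with the total reads the study states for each library, and CPM with the summed miRNA counts. At 3 counts the TPM floor was 0.179 to 0.282. Log2 fold-changes had 0.5 added to each count, with exact binomial 95% intervals, and backgrounds used miRNAs reaching 10 counts in one or both libraries. Poisson tests compare libraries and not conditions, and none was run. Alternatives were TMM sizes (edgeR 4.0.16), DESeq2 1.42.0 size factors, other totals, filters and no pseudocount. Members and lists were chosen with earlier results of these data known. Named miRNAs were the members, the other rows of their hairpins, the 3 most like each member and the 2 most counted of each list. RefSeq matures matched 1524 of 1733 names, after an arm suffix was allowed where names carry none, and hairpin positions equal those in GENCODE release 29 (GRCh38). No coordinates were converted. Fold and interval code was tested on simulated data. Python 3.11.15, scipy 1.17.1 and R 4.3.3 were used.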

Additional observations from a re-analysis of the deposited data

Results flagged for a closer look

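All 4 members had log2 fold-changes of TPM with opposite signs in the pairs, a contrast of the lines that was not tested. They were 1.90 in Hep3B-C against Hep3B and -0.28 in Huh7-C against Huh7 for hsa-miR-193a-5p, and 2.69 and -0.85 for hsa-miR-193a-3p. For hsa-miR-193b they were 0.73 and -1.81, and for hsa-miR-365 1.26 and -1.23. The median of all miRNAs had opposite signs as well, at 1.42 and -0.66. Per miRNA counts the signs were opposite for hsa-miR-193a-3p only (0.93 and -0.34), while hsa-miR-193a-5p was positive in both pairs and hsa-miR-193b and hsa-miR-365 were negative in both.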

How the results depend on the processing

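Library size was the choice that moved values. With total miRNA counts, TMM, DESeq2 size factors and total miRNA counts without the 5 most abundant miRNAs, in this order, the members' median log2 fold-change in Hep3B-C against Hep3B was -0.18, 0.17, 0.40 and 0.10 (1.58 by total reads). In Huh7 against Hep3B it was -1.01, -0.094, -0.078 and -0.32 (1.37). Under each of these 4 sizes, 1 member was past 2-fold in Hep3B-C against Hep3B (3 by total reads) and 1 in Huh7-C against Huh7 (2). The former was hsa-miR-193b, lower, by miRNA counts, but hsa-miR-193a-3p, higher, under the other sizes (1.28, 1.51 and 1.21). The latter was hsa-miR-193b, lower, under each (-1.29, -1.49, -1.23 and -1.07). The share of all miRNAs past 2-fold in Hep3B-C against Hep3B was 44.4%, 43.2%, 44% and 42.9%. Signs turned for hsa-miR-193b in Hep3B-C against Hep3B (-1.04, -0.69, -0.45 and -0.75) and in Huh7 against Hep3B (-1.83, -0.91, -0.90 and -1.13). They turned for hsa-miR-365 in Hep3B-C against Hep3B (-0.51 by miRNA counts, -0.16 by TMM and -0.22 without the 5 most abundant). For hsa-miR-193a-5p they turned in Huh7-C against Huh7 (0.23, 0.032, 0.29 and 0.45), in Huh7 against Hep3B (-0.20 by miRNA counts) and in Huh7-C against Hep3B-C (0.27 by TMM, 0.30 by DESeq2 size factors and 0.53 without the 5 most abundant). Without a pseudocount, the log2 fold-changes and log2 ratios kept their sign and stayed within their intervals, and the counts of members past 2-fold were equal. Of the 3 miRNAs most like hsa-miR-193a-3p, 1 was kept with a minimum of 10 counts. For hsa-miR-193a-5p and hsa-miR-193b 2 were kept each, and for hsa-miR-365 all 3. Raising the minimum for the summed counts of a starred and an unstarred row from 10 to 50 was decided after seeing the data. The share of hairpins whose starred arm gained on its partner in both HCSC lines was then 21.9%, against 24.1%. No minimum was set on the starred arm alone.

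No paired analysis was possible because each condition had 1 library and no test was run. Leaving out a library would leave a pair without a comparison. At 7 to 9 counts, hsa-miR-365 in Huh7-C and hsa-miR-193a-3p in Hep3B limit every ratio built on them.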

Other observations

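The 5p strands of the hairpins paired on chromosome 16 did not keep a fixed ratio, and this comparison was chosen after the counts were seen. Hsa-miR-193b* was 0.586 times hsa-miR-365* in Hep3B (interval 0.478 to 0.717), 0.291 times in Hep3B-C (0.261 to 0.324), 0.469 times in Huh7 (0.362 to 0.605) and 0.208 times in Huh7-C (0.149 to 0.286). The ratio in the HCSCs was 0.497 times that of the parent line in the Hep3B pair (exact conditional interval 0.395 to 0.627) and 0.443 times in the Huh7 pair (0.290 to 0.674). The starred miR-365 row may hold reads of both chromosome 16 and chromosome 17.
Hsa-miR-193a-5p over hsa-miR-193b* differed more by line than by state, at 2.76 (interval 2.29 to 3.33) in Hep3B, 3.37 (3.03 to 3.75) in Hep3B-C, 13.6 (11.0 to 17.1) in Huh7 and 21.9 (16.3 to 29.9) in Huh7-C.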
